A study of Mus musculus with 14 samples.

Results

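*Fgf23*, the gene of a phosphate-regulating hormone, and 9 genes of bone mineral and phosphate control were followed in mice lacking the RNA-binding protein ZFP36L2. The 10 members are *Fgf23*, *Kl*, *Galnt3*, *Fam20c*, *Phex*, *Dmp1*, *Spp1*, *Ibsp*, *Mepe* and *Alpl*, out of 49315 genes in the spleen count table. The 18603 genes in the ovary table hold 8 of them, without *Fgf23* and *Mepe*. The set was chosen by the spleen comparison itself, because *Fgf23*, *Dmp1* and *Spp1* were higher in the knockout spleen, and the other members were added for their function. The spleen values of the members, with any call or p-value made from them, are therefore given as a description. Levels in the ovary were not used for the choice.

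The libraries, each of poly(A) RNA from 1 animal, number 8 for the spleen (4 per genotype) and 6 for the ovary (3 per genotype). L2-fKO mice (Zfp36l2-/-;CMV-Cre, named L2-cKO in the sample labels) have lost *Zfp36l2* in the whole body, because the CMV promoter drives Cre in the early embryo. The wild-type controls carried both intact *Zfp36l2* copies and also the CMV-Cre transgene, and all animals were young pups. By the labels, 2 wild-type spleens and 1 L2-fKO spleen came from females, the other spleens from males, and L2-fKO spleen 3 and L2-fKO ovary 1 from the same female. The labels call the spleen source a spleen organoid, and it was taken here as the dissected spleen of the study's methods. Libraries held 39138010 to 45167464 counts in the spleen and 31052510 to 44270070 recovered reads in the ovary. *Zfp36l2* itself had 4362 to 7394 normalized counts in wild-type and 278 to 405 in L2-fKO spleens, and 4745 to 4906 against 758 to 1011 in the ovaries. The groups did not overlap in either tissue.

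FGF23 is an endocrine fibroblast growth factor made mainly by osteocytes and osteoblasts. It binds FGF receptors together with the co-receptor klotho (*Kl*) in the kidney, where it lowers phosphate reabsorption and the synthesis of active vitamin D. Its secretion depends on GALNT3, which adds sugars that shield the hormone from furin, and on FAM20C, a secretory kinase whose phosphorylation favours cleavage. PHEX and DMP1 hold FGF23 production down in bone, since the loss of either raises the hormone. *Dmp1*, *Spp1* (osteopontin), *Ibsp* (bone sialoprotein) and *Mepe* encode acidic matrix proteins of the SIBLING family, and *Alpl* encodes the alkaline phosphatase that removes the mineralization inhibitor pyrophosphate.

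ZFP36L2 binds AU-rich elements in the 3′UTRs of mRNAs and favours their decay. The short element AUUUA (5-mer) and the longer UAUUUAU (7-mer, which contains the 5-mer) were counted per member, using its longest 3′UTR among protein-coding transcripts of the GENCODE annotation of GRCm38. At least 1 5-mer was present in 8 of the 10 members and a 7-mer in 3, against 69.3% and 29.7% of 14192 spleen-tested genes with an annotated 3′UTR. *Fgf23* has 1 5-mer and no 7-mer in 930 bases. In the study's gel shift assays, a probe holding this AUUUA did not bind ZFP36L2, and binding appeared to require UAUUUAU. None of the other members was among the listed probes. *Dmp1* has 6 5-mers, 2 of them within 7-mers, in 1131 bases, and *Spp1* has 2 5-mers and no 7-mer in 432 bases. *Galnt3* holds 2 7-mers and *Phex* 1, while *Fam20c* and *Mepe* hold neither motif. All AUUUA matches of *Fgf23* and *Spp1* are shown, with the 7-mers of *Dmp1*, *Galnt3* and *Phex* for comparison. *Dmp1* also has 4 other 5-mers. Sequences are given as mRNA, 5′ to 3′, in GRCm38, with the AUUUA in capitals.
Fgf23, chr6:127080776-127080802, plus strand: auguuaaucugAUUUAaagaccccaac
Dmp1, 7-mer, chr5:104213629-104213655, plus strand: aauauaacucuAUUUAuucuugagaua
Dmp1, 7-mer, chr5:104213880-104213906, plus strand: uuuuccagauuAUUUAugugcagugua
Spp1, chr5:104440640-104440666, plus strand: ccuuacuuugcAUUUAguaaaaacaag
Spp1, chr5:104440904-104440930, plus strand: gaaacaagcaaAUUUAcugaaacaagc
Galnt3, 7-mer, chr2:66084025-66084051, minus strand: ugcauuuccuuAUUUAuaucuuaagau
Galnt3, 7-mer, chr2:66083355-66083381, minus strand: uaaucuugaauAUUUAugacacugaau
Phex, 7-mer, chrX:157164022-157164048, minus strand: uguuaguguguAUUUAuguagggcauu

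**Figure D1:**
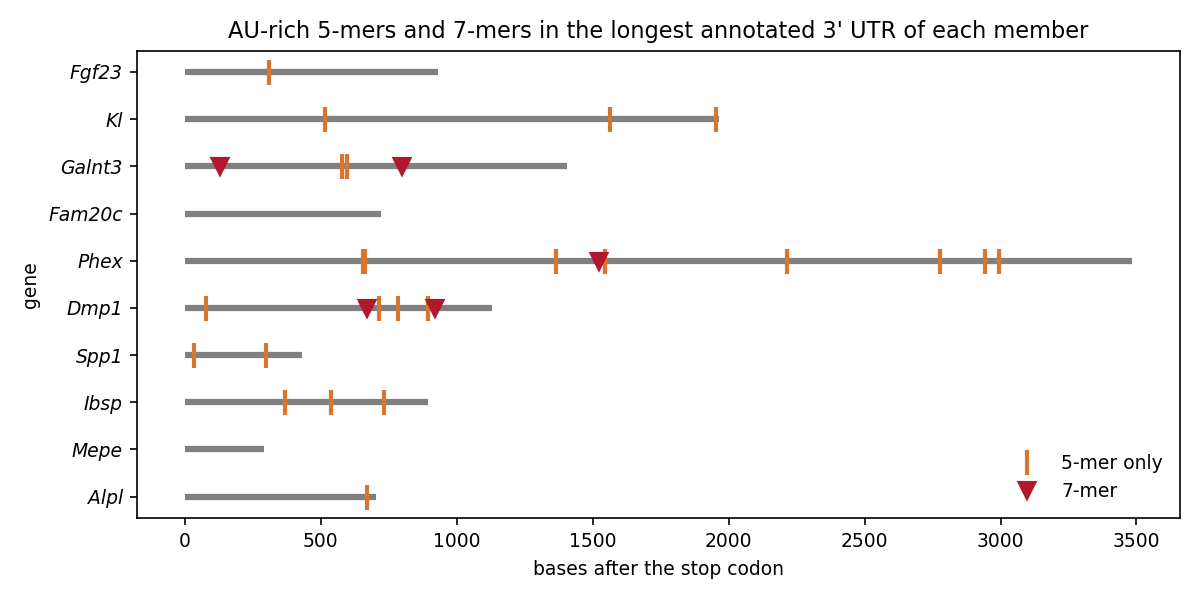
Where AU-rich motifs lie in the members' 3′UTRs. The horizontal axis gives bases after the stop codon, grey bars are the 3′UTRs, ticks are 5-mers outside a 7-mer and triangles are 7-mers. *Fgf23* has a lone 5-mer at base 309, and *Fam20c* and *Mepe* have none.

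The bases just before the transcription start are shown for *Fgf23*, *Dmp1* and *Spp1*, because these members were higher together in the L2-fKO spleen. The 250 bases upstream of the start were taken from the RefSeq promoter table of GRCm38.p6, and 4 motifs were searched on both strands. They were TATAAA, which the general factor TBP binds, TGTGGT, found in RUNX sites, ACGTG, found in hypoxia response elements, and AGATAA, found in sites of GATA factors. Capitals mark the matches. Of 32851 promoters of this length, 12.4% hold TATAAA, 14.0% TGTGGT, 16.6% ACGTG and 9.99% AGATAA.
Fgf23, chr6:127072652-127072901, plus strand: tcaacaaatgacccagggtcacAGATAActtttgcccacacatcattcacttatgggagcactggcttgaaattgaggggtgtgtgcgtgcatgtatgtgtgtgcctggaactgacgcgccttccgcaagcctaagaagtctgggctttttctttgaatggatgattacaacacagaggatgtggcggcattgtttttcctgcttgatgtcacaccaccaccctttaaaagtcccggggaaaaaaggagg
Dmp1, chr5:104202367-104202616, plus strand: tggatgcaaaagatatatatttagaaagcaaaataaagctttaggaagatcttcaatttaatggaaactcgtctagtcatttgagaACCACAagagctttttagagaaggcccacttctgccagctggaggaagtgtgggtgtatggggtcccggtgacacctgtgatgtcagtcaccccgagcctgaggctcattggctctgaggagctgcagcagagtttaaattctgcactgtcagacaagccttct
Dmp1, other start, chr5:104197325-104197574, plus strand: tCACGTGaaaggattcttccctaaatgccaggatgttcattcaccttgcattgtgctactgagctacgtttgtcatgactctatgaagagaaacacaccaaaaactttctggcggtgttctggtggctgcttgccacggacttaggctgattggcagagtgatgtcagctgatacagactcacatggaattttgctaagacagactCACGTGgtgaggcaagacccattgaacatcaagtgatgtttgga
Spp1, chr5:104434861-104435110, plus strand: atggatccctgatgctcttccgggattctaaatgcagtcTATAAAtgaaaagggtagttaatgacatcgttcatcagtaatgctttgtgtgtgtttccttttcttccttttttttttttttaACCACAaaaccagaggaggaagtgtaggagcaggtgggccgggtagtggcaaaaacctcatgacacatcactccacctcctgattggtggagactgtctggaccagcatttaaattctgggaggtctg
The *Fgf23* window held 1 AGATAA, the first *Dmp1* window 1 TGTGGT on the minus strand, and the *Spp1* window 1 TATAAA and 1 TGTGGT on the minus strand. The window of the other *Dmp1* start held 4 ACGTG matches, at 2 CACGTG stretches that each match on both strands, and the other windows shown held none. The table's other *Spp1* start, not shown, held none of the 4 motifs. These matches are a description of the letters and were not tested for binding.

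In the spleen, *Fgf23* went from a handful of reads to a well-expressed mRNA. The wild-type libraries held 2, 5, 6 and 0 *Fgf23* reads and the L2-fKO libraries 1719, 1000, 2878 and 1610. Every L2-fKO library lay far above every wild-type library. The mean TMM-normalized count was 3.23 ± 2.77 (SD, n = 4) for wild type, and for L2-fKO it was 1850.3 ± 896 (SD, n = 4). The log2 fold change was 9.11 ± 0.56 (SE), the highest of the 16911 genes tested, the next being 8.04. Because the wild-type level rests on 13 reads in all, the size of the fold is poorly known: the ratio of summed reads per total was 567, with an exact 95% interval of 332 to 1066 that covers counting error only. Per kilobase of exon, *Fgf23* had 0.0411 ± 0.0353 RPKM (SD, n = 4) in the wild-type group, above 0.812% of the 16877 tested genes with a known length. In L2-fKO it had 23.6 ± 11.4 RPKM (SD, n = 4), above 86.4% of them. The highest L2-fKO value, 39.9 RPKM, was that of the only female of the group. In the male libraries alone the log2 fold change was 9.07 ± 0.57 (SE). In whole tissue, more cells of an expressing type and more RNA per cell cannot be told apart.

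*Dmp1*, a SIBLING protein of the osteocyte matrix, was higher in every L2-fKO spleen. Its normalized counts were 20.7, 26.3, 11.9 and 37.4 in wild-type and 96.0, 80.9, 93.4 and 117.7 in L2-fKO spleens. The lowest L2-fKO library was above the highest wild-type library. The log2 fold change was 2.01 ± 0.32 (SE), a ratio of means of 4.03.

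*Spp1*, which encodes osteopontin, a matrix protein and cytokine also made by macrophages, overlapped between the groups. Its normalized counts were 88.6, 40.4, 34.8 and 36.4 in wild-type and 122.1, 88.6, 180.3 and 97.2 in L2-fKO spleens. Wild-type spleen 1 reached the level of the lowest L2-fKO library, and the other 3 wild-type libraries lay below all L2-fKO libraries. The log2 fold change was 1.28 ± 0.36 (SE). It met the limits of a call (adjusted p under 0.05 with a log2 fold change beyond 1 in either direction) in the edgeR test, but only in 8 of 15 alternative analyses. *Spp1* helped to choose the set, so these calls are a description. The call was lost with the replicate block and when wild-type spleen 2, 3 or 4 was left out, and likewise L2-fKO spleen 1, 2 or 3, where the log2 fold change was 1.04 to 1.41. The highest value was in the same L2-fKO female that had the highest *Fgf23* level.

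The enzymes that process FGF23 and mineral differed little. *Galnt3* had 485 ± 60.8 normalized counts in wild-type and 576 ± 118 in L2-fKO spleens (SD, n = 4 each), and its log2 fold change was 0.25 ± 0.17 (SE). *Fam20c* had 139 ± 44.4 and 144 ± 31.6 (SD, n = 4 each), a log2 fold change of 0.053 ± 0.26 (SE). *Alpl* had 263 ± 94.9 and 332 ± 124 (SD, n = 4 each), a log2 fold change of 0.34 ± 0.34 (SE). In each of these 3 genes the groups overlapped, and leaving out a library turned the sign of *Fam20c*. The change of *Fam20c* was 0.56 ± 0.19 (SE; adjusted p = 0.0972) in the male libraries alone. *Spp1* lay just inside the limits of a call, and the next largest change, that of *Alpl*, was well below them, so no member lay just outside.

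The remaining 4 members were too low in the spleen for the test, which required at least 10 counts in at least 4 libraries. *Phex*, an endopeptidase-like membrane protein, had 7, 7, 5 and 6 reads in wild-type and 4, 0, 2 and 3 in L2-fKO spleens. Each L2-fKO library thus had fewer *Phex* reads than each wild-type library, at 25 reads against 9 in all (exact 95% Poisson intervals 16.2 to 36.9 and 4.12 to 17.1, counting error only). *Kl* had 10 reads over the wild-type and 7 over the L2-fKO libraries. *Ibsp* had 2 and 1, and *Mepe* 3 and 0, where a count of 0 allows up to 3 reads (one-sided limit) in the 170680654 of the L2-fKO libraries. The share of genes this low without overlap is not given here. In an edgeR fit without the filter on low counts, *Phex* had a log2 fold change of -1.39 ± 0.68 (SE; adjusted p = 0.289). This did not meet the limits of a call. No difference was detectable at this depth for *Kl*, *Ibsp* and *Mepe*.

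Of the 6 members tested in the spleen, 3 were called higher and 0 lower by edgeR, and the same count was called by DESeq2. The 3 are those that chose the set, and *Fgf23* entered the test through the L2-fKO libraries only and had to differ. Over all tested genes 2.90% were called higher and 3.11% lower. Levels per kilobase in wild-type spleens ran, from the highest, *Galnt3* 2.56, *Alpl* 1.51, *Spp1* 0.703, *Fam20c* 0.487, *Dmp1* 0.202 and *Fgf23* 0.0411 RPKM. The libraries of *Alpl* and *Spp1* and those of *Spp1* and *Fam20c* overlapped, and the other neighbours in this order did not. In L2-fKO the order was *Fgf23* 23.6, *Galnt3* 3.04, *Alpl* 1.90, *Spp1* 1.71, *Dmp1* 0.812 and *Fam20c* 0.506 RPKM. Here *Galnt3* overlapped with *Alpl* and *Alpl* with *Spp1*.

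**Figure D2:**
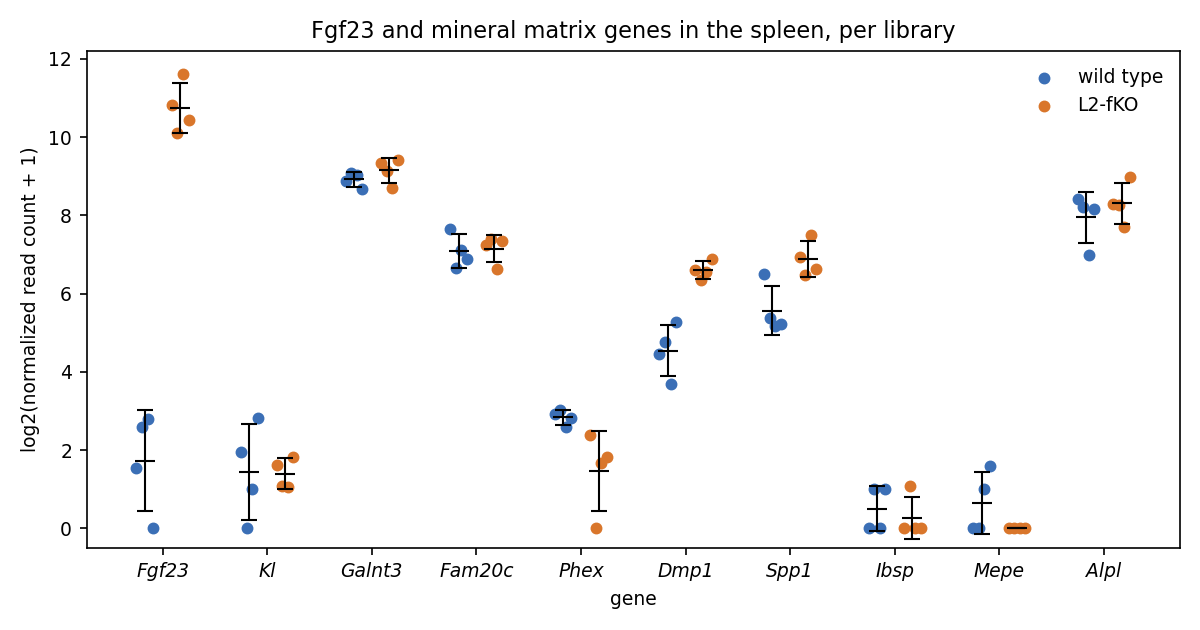
Levels of the 10 members in each spleen library, as log2(normalized read count + 1). Blue points are the 4 wild-type and orange points the 4 L2-fKO libraries, and black bars are the mean and SD of the log2 values. The *Fgf23* and *Dmp1* groups are apart, while *Galnt3*, *Fam20c* and *Alpl* overlap.

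The genes around *Fgf23* were compared to see whether its neighbours moved with it; they were singled out after their values were seen. *Fgf23* lies at chr6:127072902-127081408 in GRCm38, between *Fgf6* and *Tigar*. *Fgf6* had 1 read over the wild-type and 0 over the L2-fKO libraries. *Tigar* had 208 ± 41.3 and 237 ± 59.95 normalized counts (SD, n = 4 each), a log2 fold change of 0.19 ± 0.22 (SE). Within 200 kb lie 7 other protein-coding genes, of which 4 were tested, 2 had an unadjusted edgeR p below 0.05 and 0 were called by edgeR or by DESeq2. Over all tested spleen genes, 29.0% had an unadjusted p below 0.05.

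*Dmp1*, *Ibsp*, *Mepe* and *Spp1* form a cluster on chromosome 5 together with *Dspp*, which encodes the dentin matrix protein of the same family. *Dmp1* starts at 104202613 and *Spp1* ends at 104441050, and *Ibsp* and *Mepe* lie between them. *Dspp* had 0, 0, 4 and 0 reads in wild-type and 2, 1, 2 and 2 in L2-fKO spleens. *Dmp1* and *Spp1* were thus higher in L2-fKO, while *Dspp*, *Ibsp* and *Mepe* stayed at 4 reads or fewer per library. Of the 7 other protein-coding genes in the cluster or within 200 kb of it, 5 were tested, 2 had an unadjusted edgeR p below 0.05 and 1 was called. This was *Sparcl1*, a matrix glycoprotein gene, which rose from 2988 ± 618 to 8147 ± 708 normalized counts (SD, n = 4 each), a log2 fold change of 1.45 ± 0.15 (SE; edgeR adjusted p = 0.000411). *Pkd2* had a log2 fold change of 0.80 ± 0.16 (SE), and *Nudt9*, *Hsd17b11* and *BC005561* had -0.34, -0.31 and -0.20.

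Patterns most like that of *Fgf23* were looked for by the root mean square difference in centred log2 CPM (normalized for library size) over the 8 spleen libraries, as a description. The 5 nearest genes were *C2cd4a* (1.75), *A2m* (1.79), *4632432E15Rik* (2.06), *Apol10a* (2.11) and *Mmp3* (2.17). *C2cd4a* had 33.6 ± 30.9 normalized counts in wild-type and 1047 ± 199 in L2-fKO spleens, and *A2m*, a protease inhibitor gene, 6.15 ± 1.90 and 317 ± 202 (SD, n = 4 each). *Mmp3*, a matrix metalloproteinase gene, had 11.6 ± 3.35 and 273 ± 40.5 (SD, n = 4 each). The log2 fold changes of the 5 genes, 4.54 to 5.91, were smaller than that of *Fgf23*.

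In the ovary, which the choice of members did not use, *Kl* had the largest change of the 8 members tested. Klotho is the co-receptor that gives FGF23 its target tissues. Its normalized counts were 36.5, 40.9 and 55.1 in wild-type and 96.6, 133.6 and 87.7 in L2-fKO ovaries. All 3 L2-fKO libraries were above all 3 wild-type libraries. The log2 fold change was 1.24 ± 0.26 (SE), with a limma adjusted p of 0.0702, which missed the limit. On the recovered reads, edgeR gave 1.25 ± 0.26 (SE) with an adjusted p of 0.0714, and DESeq2 gave 1.26 ± 0.31 (SE) with an adjusted p of 0.00235, which met it. Over the 11 alternatives the adjusted p of *Kl* ran from 0.00235 to 0.255, and the log2 fold change from 1.06 to 1.41. The level was low in both groups, at 0.127 ± 0.0279 and 0.304 ± 0.0698 RPKM (SD, n = 3 each). With 3 against 3 libraries an exact permutation test cannot give a two-sided p below 0.1, the value it gave for *Kl*.

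*Dmp1* was also higher in each L2-fKO ovary. Its normalized counts were 37.7, 53.5 and 39.5 in wild-type and 67.1, 88.4 and 61.5 in L2-fKO ovaries, without overlap. The exact permutation test gave 0.1, the lowest value it can give here, and the share of all ovary genes without overlap is not given. The log2 fold change of 0.72 ± 0.25 (SE) had a limma adjusted p of 0.216, and no alternative called it. *Spp1* had 37.7, 59.3 and 122.0 normalized counts in wild-type and 149.3, 79.1 and 67.2 in L2-fKO ovaries, which overlapped (log2 fold change 0.50 ± 0.47, SE; limma adjusted p = 0.630). The highest *Spp1* value was in the animal that also had the highest *Spp1* value among the spleens.

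The other members did not separate in the ovary. *Phex* had 627, 644 and 845 normalized counts in wild-type and 667, 409 and 574 in L2-fKO ovaries (log2 fold change -0.37 ± 0.20, SE; limma adjusted p = 0.397). *Ibsp* had 221, 167 and 123 against 207, 44.2 and 216, and the low value of L2-fKO ovary 2 set the direction of its change, which was -0.39 ± 0.59 (SE) with it and 0.35 ± 0.25 (SE) without it. *Fam20c* ranged from 2429 to 3602 in wild-type and from 1337 to 2767 in L2-fKO ovaries, *Alpl* from 676 to 787 and from 532 to 979, and *Galnt3* from 86.2 to 123 and from 74.0 to 131. L2-fKO ovary 2 had the lowest value of its group for *Phex*, *Ibsp*, *Fam20c* and *Alpl* and the highest for *Kl* and *Dmp1*. *Fgf23* and *Mepe* are not among the 18603 genes with ovary values used here, so no ovary level is given for them.

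Of the 8 members tested in the ovary, 0 were called by limma or by edgeR on the recovered reads, 1 was called by DESeq2 and 2 had an unadjusted limma p below 0.05. Over all genes 16.8% had an unadjusted limma p below 0.05. Limma called 0.730% higher and 0.227% lower, and DESeq2 called 1.54% higher. Per kilobase, wild-type ovaries had 11.7 RPKM of *Fam20c*, 4.81 of *Alpl*, 3.02 of *Phex*, 2.22 of *Ibsp*, 1.19 of *Spp1*, 0.611 of *Galnt3*, 0.424 of *Dmp1* and 0.127 of *Kl*. *Phex* and *Ibsp*, at a few reads or fewer in each spleen library, were thus among the higher members in the ovary. Values of the 2 tissues come from tables that were normalized separately, and the difference between the tissues was not tested.

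**Figure D3:**
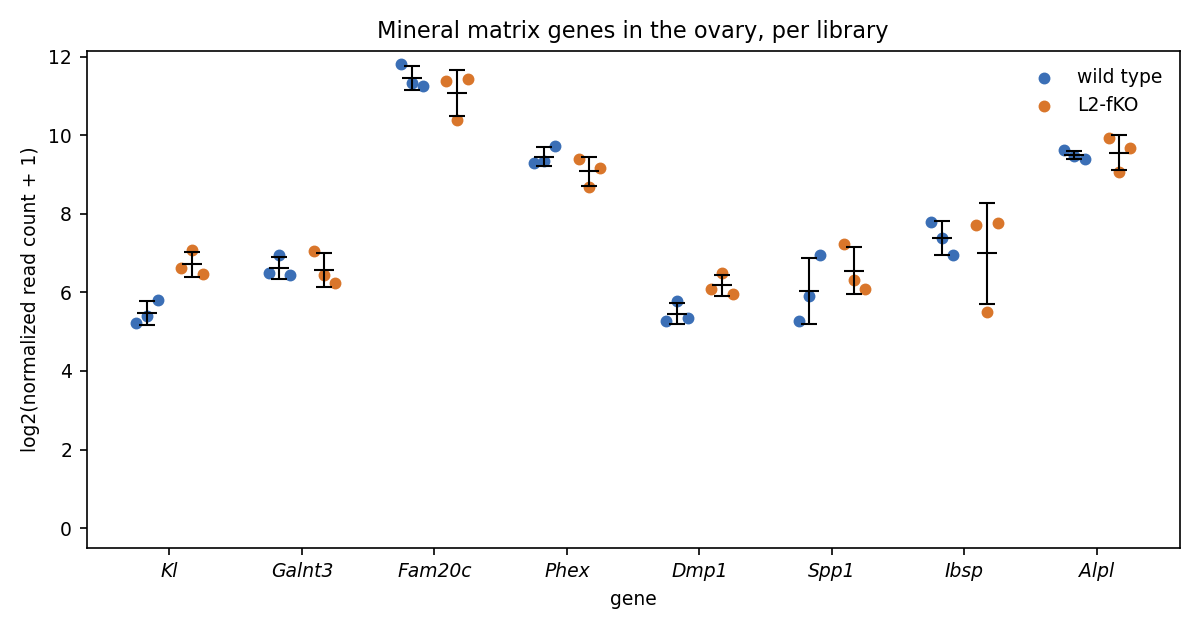
Levels of the 8 members in each ovary library, as log2(normalized read count + 1). Blue points are the 3 wild-type and orange points the 3 L2-fKO libraries, and black bars are the mean and SD of the log2 values. *Kl* and *Dmp1* do not overlap between the groups, and the other 6 members do. The share of all ovary genes without overlap is not given here, so this is a description only.

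**Figure D4:**
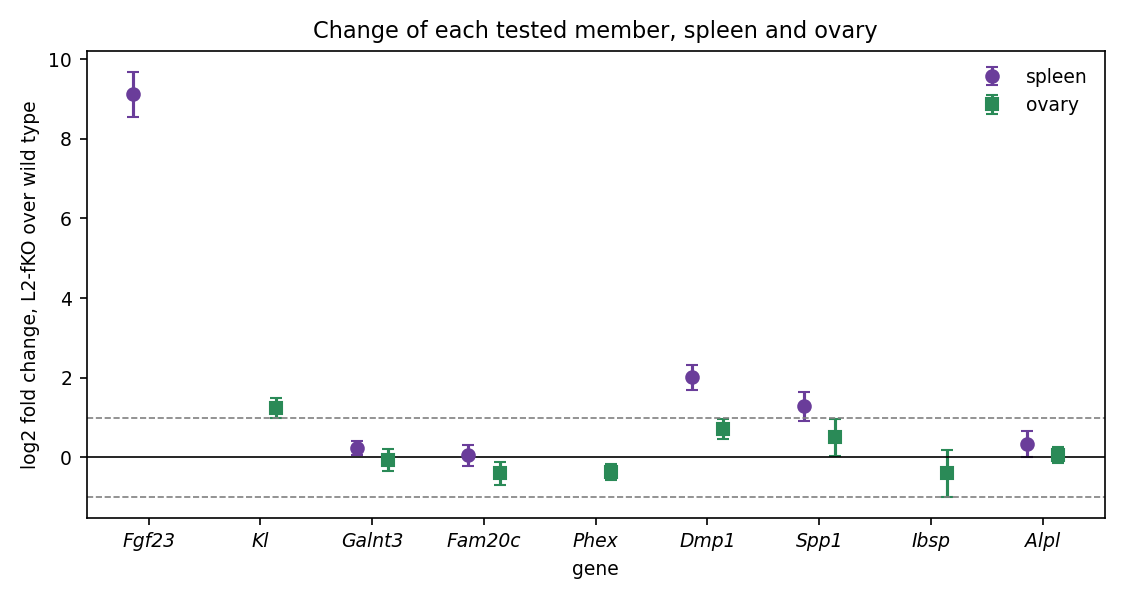
Log2 fold change of L2-fKO over wild type for each tested member, with its SE. Circles are the spleen and squares the ovary, and dashed lines mark changes of 1 in either direction. *Fgf23* lies at 9.11 in the spleen, and in the ovary *Kl* at 1.24 is the only member beyond 1.

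The genes that FGF23 acts through, and other genes of phosphate handling and mineral, were read from a list of 36, of which 24 were tested in the spleen. Among these, 2 were called higher and 0 lower by edgeR, where 2.90% and 3.11% of all tested genes were. The median log2 fold change was 0.29 against -0.020 over all tested genes. Of the 24, 5 had an edgeR adjusted p below 0.05, against 2267 of all 16911 tested genes. *Fgf1* (0.96 ± 0.17, SE), *Sparc* (0.57 ± 0.13) and *Ank* (-0.88 ± 0.23) were among them and missed the fold limit only. *Fgf15*, which encodes the endocrine relative of FGF23 that the ileum releases to restrain bile acid synthesis, was called. It had 1, 0, 0 and 0 reads in wild-type and 16, 22, 16 and 12 in L2-fKO spleens, so it entered the test through the L2-fKO libraries only and had to differ, at a ratio of summed reads of 67.5 with an exact 95% interval of 11.7 to 2707 for counting error only. *Vdr*, the vitamin D receptor, rose from 58.2 ± 23.7 to 137.1 ± 47.5 normalized counts (SD, n = 4 each), a log2 fold change of 1.23 ± 0.33 (SE; edgeR adjusted p = 0.0379). Wild-type spleen 1, at 92.4, nearly reached the lowest L2-fKO library, at 93.0. *Fgfr1*, the main FGF23 receptor, had a log2 fold change of 0.34 ± 0.15 (SE; adjusted p = 0.169), *Furin*, the protease that inactivates FGF23, 0.28 ± 0.13 (adjusted p = 0.176), and *Fam20a*, the pseudokinase partner of FAM20C, 0.30 ± 0.28 (adjusted p = 0.511). In the ovary 27 of the list were tested and 0 were called by limma, edgeR or DESeq2, with 5 at an unadjusted limma p below 0.05.

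Anaemia, hypoxia and inflammation are known to raise *Fgf23* expression, and a list of 18 genes of these responses was read beside it. In the spleen 17 were tested, 2 were called higher and 1 lower by edgeR, at a median log2 fold change of 0.24. Over all tested genes 2.90% were called higher and 3.11% lower. Of the 17, 6 had an edgeR adjusted p below 0.05, against 2267 of all 16911 tested genes. The hypoxia genes *Hif1a* (0.78 ± 0.12, SE), *Epas1* (0.80 ± 0.21) and *Vegfa* (0.89 ± 0.24) were among them and missed the fold limit only. *Egln3* (0.54), *Slc2a1* (0.24) and *Egln1* (-0.10) were not among them. *Erfe*, the erythroblast hormone erythroferrone, had 1712, 485, 552 and 162 normalized counts in wild-type and 5746, 4906, 9049 and 3116 in L2-fKO spleens. The groups did not overlap. L2-fKO spleen 3 had the highest value of both *Erfe* and *Fgf23*. The lowest L2-fKO values were in different libraries, spleen 4 for *Erfe* and spleen 2 for *Fgf23*. The log2 fold change was 2.97 ± 0.63 (SE; edgeR adjusted p = 0.0139). *Il6*, an inflammatory cytokine, had 2 to 5 reads in wild-type and 10 to 23 in L2-fKO libraries. It too entered the test through the L2-fKO libraries only, so its log2 fold change of 1.97 ± 0.43 (SE) is given as a description. *Lcn2*, a siderophore-binding protein abundant in neutrophils, fell by 1.96 ± 0.43 (SE; edgeR adjusted p = 0.0165) on the log2 scale. *Epor*, the erythropoietin receptor, had a log2 fold change of -0.39 ± 0.20 (SE; adjusted p = 0.242) and *Il1b*, another inflammatory cytokine, 0.78 ± 0.28 (SE; adjusted p = 0.0950). In the ovary 0 of 14 tested were called by limma, edgeR or DESeq2, with 1 at an unadjusted limma p below 0.05. The part of these responses in the level of *Fgf23* was not tested.

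**Figure D5:**
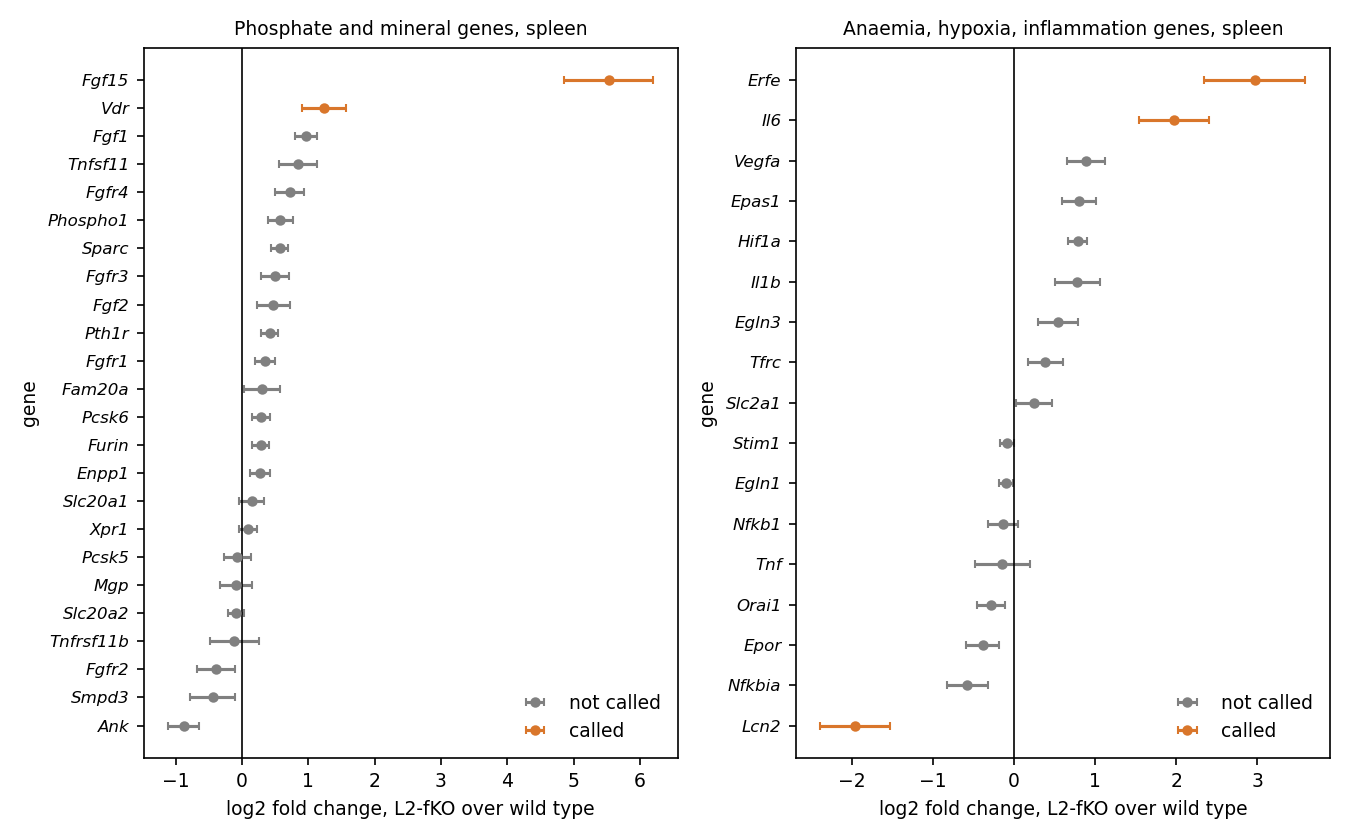
Log2 fold change of L2-fKO over wild type, with its SE, for the tested genes of the phosphate and mineral list (left, 24 genes) and of the anaemia, hypoxia and inflammation list (right, 17 genes) in the spleen. Orange points met the limits of a call. *Fgf15* and *Vdr* are called on the left, and *Erfe*, *Il6* and *Lcn2* on the right.

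Of the markers of bone cells, which usually express these genes, the more restricted ones were low in the spleen and the widely expressed ones were not. The osteoblast markers *Sp7* (14 reads over the wild-type and 3 over the L2-fKO libraries), *Bglap2* (1 and 0) and *Dlx5* (2 and 0) and the osteocyte marker *Sost* (24 and 21) were at or near 0 in the tissue where *Fgf23* reached 1000 reads or more in each L2-fKO library. The osteoblast list also holds the collagen genes *Col1a1* (45372 and 56795 reads) and *Col1a2* (69132 and 82506), which fibroblasts express too, *Pth1r* (1865 and 2458) and *Runx2* (900 and 463), and the osteocyte list holds *Ank* (17303 and 8919) and *Hyou1* (16721 and 20424). Summed osteoblast markers ran from 595 to 747 CPM in wild-type and from 747 to 1005 in L2-fKO spleens, and summed osteocyte markers from 188 to 214 and from 156 to 191. Over all tested spleen genes, edgeR called 2.90% higher and 3.11% lower, and 29.0% had an unadjusted p below 0.05. Of the 6 osteoblast markers tested 0 were called by edgeR or DESeq2, with 3 at an unadjusted edgeR p below 0.05. Of the 5 osteocyte markers tested, 1 was called, the collagenase gene *Mmp13*, at a log2 fold change of 2.26 ± 0.43 (SE; edgeR adjusted p = 0.00860). Of the 6 osteoclast markers tested, 2 were called lower. Other lineages did move with genotype. All 8 megakaryocyte and all 8 neutrophil markers were called lower, and 5 of 6 mast cell markers higher. Pancreatic acinar markers, of which 4 of the 5 tested were called lower, varied widely among the wild-type spleens. The acinar gene *Pnliprp1* ran from 7.95 to 6007 normalized counts in wild-type and from 1.71 to 15.2 in L2-fKO spleens. Summed mast cell markers ran from 14.5 to 45.4 CPM in wild-type and from 56.1 to 331 in L2-fKO spleens, and summed megakaryocyte markers from 529 to 1083 and from 26.8 to 32.6. Summed acinar markers ran from 38.0 to 543 and from 29.0 to 50.4, and overlapped between the groups. Of 11 macrophage markers 1 was called higher and 1 lower, with sums of 721 to 1161 and 1144 to 2167 CPM, and of 10 fibroblast and stroma markers 3 higher. The erythroid, B cell and T cell lists had 0 calls by edgeR or DESeq2, with 1, 0 and 0 genes at an unadjusted edgeR p below 0.05. The part of these lineages in the levels of *Fgf23*, *Dmp1* and *Spp1* was not tested.

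In the ovary all 12 ovary markers were tested, and 0 were called by limma or edgeR and 1 by DESeq2, with 3 at an unadjusted limma p below 0.05. Over all tested ovary genes, limma called 0.730% higher and 0.227% lower, and 16.8% had an unadjusted limma p below 0.05. Of 10 macrophage markers tested there, 6 had an unadjusted limma p below 0.05 and 1 was called by limma, edgeR and DESeq2. It was *Gpnmb*, a lysosomal glycoprotein gene, at a log2 fold change of 1.09 ± 0.19 (SE; limma adjusted p = 0.0381). Summed macrophage markers ran from 59.0 to 73.5 CPM in wild-type and from 73.2 to 99.3 in L2-fKO ovaries. The other lists had 0 calls by limma or edgeR. DESeq2 called *Hba-a1* of the erythroid list higher, and the mast cell markers *Cpa3* and *Tpsb2* and the acinar marker *Cpa1* lower. Their sums were 155 to 248 and 224 to 342 CPM for erythroid, 41.4 to 65.3 and 17.7 to 41.7 for mast cell, and 42.0 to 49.4 and 22.2 to 25.7 for acinar markers. The part of these cell types in the levels of *Kl* and *Dmp1* in the ovary was not tested.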

How the data were processed

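RNA was extracted from dissected spleens and ovaries, and poly(A) libraries were sequenced with 1 animal per library. Per the labels and methods, the authors used Trimmomatic 0.36 for trimming and STAR 2.5.2b for mapping to GRCm38, and featureCounts (Subread 1.5.2) then gave strand-specific exon counts of uniquely mapped reads. The deposited spleen values are raw counts. The ovary values deposited by the authors are signal values, that is counts scaled by a size factor for each library; whole reads were recovered from them (100.0% of values whole within 0.001). The authors' fold changes and p-values were not used, nor were 16 per-sample columns that repeat the spleen libraries.

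Spleen counts were tested with edgeR 4.0.16 (quasi-likelihood, TMM; at least 10 counts in at least 4 libraries), and ovary values with limma 3.58.1 (intensity trend) on log2(value + 1), for values of at least 10 in at least 3 libraries, so ovary fold changes are on that scale and understate those of low genes. DESeq2 1.42.0 was an alternative. Calls needed a p below 0.05 after Benjamini-Hochberg adjustment over all genes tested, and a log2 fold change beyond 1 in either direction. Fits used R 4.3.3 and were tested on simulated counts. RPKM are normalized CPM per kilobase of merged exons. Gene records were matched for 49056 of 49315 spleen and 18550 of 18603 ovary genes.

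All 10 members are named with their values, as are the 5 genes nearest *Fgf23*. So is every called gene of the phosphate and mineral and of the anaemia, hypoxia and inflammation lists. A set of 8 genes of these lists, fixed with them, is named too, and of these *Erfe* and *Lcn2* were also called. Neighbouring genes, the uncalled hypoxia genes, *Fgf1*, *Sparc*, *Ank* and the markers named were picked later. The members and lists were chosen with earlier results of these data known. Of the 2 wild-type spleens labelled 3, the male one was taken as wild-type spleen 4. By the methods, the wild types were littermate controls and the spleens came from 4 pairs of matched age, but the labels do not say which animals share a litter or a pair, so p-values measure the spread between these animals only.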

Additional observations from a re-analysis of the deposited data

Results flagged for a closer look

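*Spp1* in wild-type spleen 1 had 88.6 normalized counts against 34.8 to 40.4 in the other 3 wild-type spleens, and its gap to them was 0.896 of the group's range, above Dixon's limit for 4 samples. It was the only 1 of 12 groups of member values so marked, and chance marks about 1 in 20. Without this library the *Spp1* log2 fold change was 1.71.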

How the results depend on the processing

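The spleen log2 fold changes of *Fgf23* (8.72 to 9.57) and *Dmp1* (1.62 to 2.30) kept their direction and their call in all 14 and 15 alternatives. *Fgf23* has no value when at least 10 counts are required in all libraries. Both genes were among those that chose the set. *Fgf23* also entered the test through the L2-fKO libraries only and had to differ, so these calls are a description. The count of spleen genes called, 1016, was 750 to 1200 on leaving out a library, and members called were 2 to 3. The ovary count of 177 was 407 with DESeq2 on the recovered reads, 268 with the replicate block and 32 to 198 on leaving out a library (48, 32 and 39 without wild-type ovary 1, 2 or 3 and 98 without L2-fKO ovary 3), and members called in the ovary were 1 with DESeq2 and 0 to 0 on leaving out a library; the cause was not tested. The share of calls that were higher in L2-fKO was 48.2% in the spleen and 58.2% in the male libraries. Signs turned on leaving out a library for *Fam20c* in the spleen (-0.076 to 0.29, and 0.56 in the male libraries) and *Galnt3* (-0.30 to 0.11), *Alpl* (-0.13 to 0.31) and *Ibsp* (-0.78 to 0.35) in the ovary. Same-numbered wild-type and L2-fKO libraries did not deviate together in the spleen (r = -0.15, 0.097, 0.18 and -0.31). In the ovary r was 0.38, 0.21 and 0.072 for same-numbered libraries and ran from -0.33 to 0.18 for the others. Ovary numbers may thus follow pairs, but the labels name none, and the numbers were not taken as pairs in either tissue. With the replicate block 0 members were called in the ovary. With the replicate block 800 spleen genes and 2 members were called. Depth limits *Phex*, *Kl*, *Ibsp* and *Mepe* in the spleen, at 7 reads or fewer per library.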
